A study of Homo sapiens with 6 samples.

Results

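RNA interference and microRNA machinery comprised 10 genes, AGO1, AGO2, AGO3, DICER1, DROSHA, DGCR8, TNRC6A, TNRC6B, XPO5 and TARBP2, which were matched by symbol to the rows of the FPKM tables. All 10 were found among the 26255 symbols listed, and all 10 passed the filter of a mean FPKM of at least 1 that left 12203 genes for testing. FPKM scales the fragments sequenced from a gene to its transcript length and to the size of the library, so that levels of different genes can be set side by side. The cells were HCT116, an established human colorectal cancer line, and RNA was sequenced from 6 libraries in 3 groups of 2. The groups were the parent cells and those that received siLINC01534-1 or siLINC01534-2, both small interfering RNAs directed at the long noncoding RNA LINC01534. No transfection is described for the parent cells and no library with a negative control siRNA was analysed here, so that transfection and the siRNA cannot be told apart in any comparison with parent. Nothing in the labels says whether the libraries of a group came from separate cultures, and the p-values then measure the spread between these libraries, which may be technical.

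MicroRNAs are cut from long primary transcripts in the nucleus by the Microprocessor, in which DROSHA is the nuclease and DGCR8 binds the RNA hairpin. XPO5, exportin-5, carries the hairpin to the cytoplasm, where DICER1 cuts it to a short duplex with the help of TARBP2, a double-stranded RNA binding protein. An Argonaute protein keeps 1 strand as a guide, and the guide pairs with target messages mainly through its seed, the bases at positions 2 to 8. AGO2 can cut a fully matched target, which is what a transfected siRNA relies on, while the GW182 proteins TNRC6A and TNRC6B bind Argonaute and recruit the enzymes that shorten the poly(A) tail. A transfected siRNA therefore enters the pathway after the nuclear steps, and it occupies the same Argonaute proteins as the cell's own microRNAs.

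LINC01534 was examined first as a check of the labels. It measured 0.285 and 0.571 FPKM in the parent libraries, against 0 and 0.283 under siLINC01534-1 and 0.660 and 0.551 under siLINC01534-2. With a mean of 0.392 FPKM it did not pass the filter and was not tested, so that these few reads are a weak check. The libraries labelled siLINC01534-2 did not lie below parent, and group names here are those of the labels. Each library had an estimated depth of 8700000 to 10000000 reads. If all reads came from the longest coding transcript, between about 220 reads (TARBP2 in its lowest library) and 4600 reads (AGO2 in its highest) stood behind a value. The counting error was on that assumption 6.74% for the former and at most 3.98% for any of the other 9 genes. With shorter transcripts in use the reads would be fewer and these errors larger. The epithelial markers EPCAM, CDH1, KRT8, KRT18 and KRT19 were well above the filter, with an EPCAM level of 198.8 to 204.4 FPKM, whereas VIL1 and CDX1 did not exceed 0.0633 FPKM in any library. With the siRNAs averaged, CDH1 was called higher (log2 change 0.33, adjusted p = 0.014, limma), KRT8 and KRT18 were called lower (-0.21 and -0.16, adjusted p = 0.014 and 0.011, limma), and EPCAM and KRT19 were not called (-0.01 and 0.01, adjusted p = 0.71 and 0.74, limma). Of 5 markers of other cell types, PTPRC, PECAM1, COL1A2 and ALB did not exceed 0.193 FPKM. COL1A1 was at 3.02 and 3.05 FPKM in parent and between 3.79 and 5.79 FPKM in the siLINC01534 libraries (log2 change 0.49, adjusted p = 0.0062, limma), and the part of these markers in the results was not tested.

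At the level of the whole set, no gene's mean was under 0.665 or over 1.17 times that in parent with either siRNA. The median level of the 10 genes in a library lay between 18.3 and 20.8 FPKM, and the genes ranged from 4.77 FPKM (TNRC6B) to 38.8 FPKM (XPO5) in their mean over the 6 libraries. When both siRNAs were averaged and set against parent, limma called 3 of the 10 genes lower (AGO1, TARBP2 and TNRC6B) and 0 higher at a Benjamini-Hochberg adjusted p under 0.05. Over all genes tested, 37.2% were called, 20.1% lower and 17.1% higher. At an unadjusted p under 0.05, 5 of the 10 were lower and 0 higher, and 47.6% of all genes tested passed in either direction. The median log2 change of the 10 genes was -0.09, against -0.01 for all genes tested. With siLINC01534-1 alone 3 genes were lower and 2 higher than in parent, against a background of 46.3% called, 24.5% lower and 21.8% higher. With siLINC01534-2 alone 1 was lower and 0 higher, against a background of 22.8% called, 11.8% lower and 11.1% higher. At an unadjusted p under 0.05, 5 were lower and 0 higher with siLINC01534-2, and 37.9% of all genes passed in either direction. In 4 of the 10 genes (AGO1, AGO2, DICER1 and TNRC6B) all 4 siLINC01534 libraries lay below both parent libraries and in 0 they lay above, while 38.3% of all genes tested did not overlap, 19.3% below and 19% above. No gene of the set reached a ratio of 2 or fell to 0.5 in any of these comparisons. The same 2 parent libraries serve in all comparisons with parent.

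**Figure D1:**
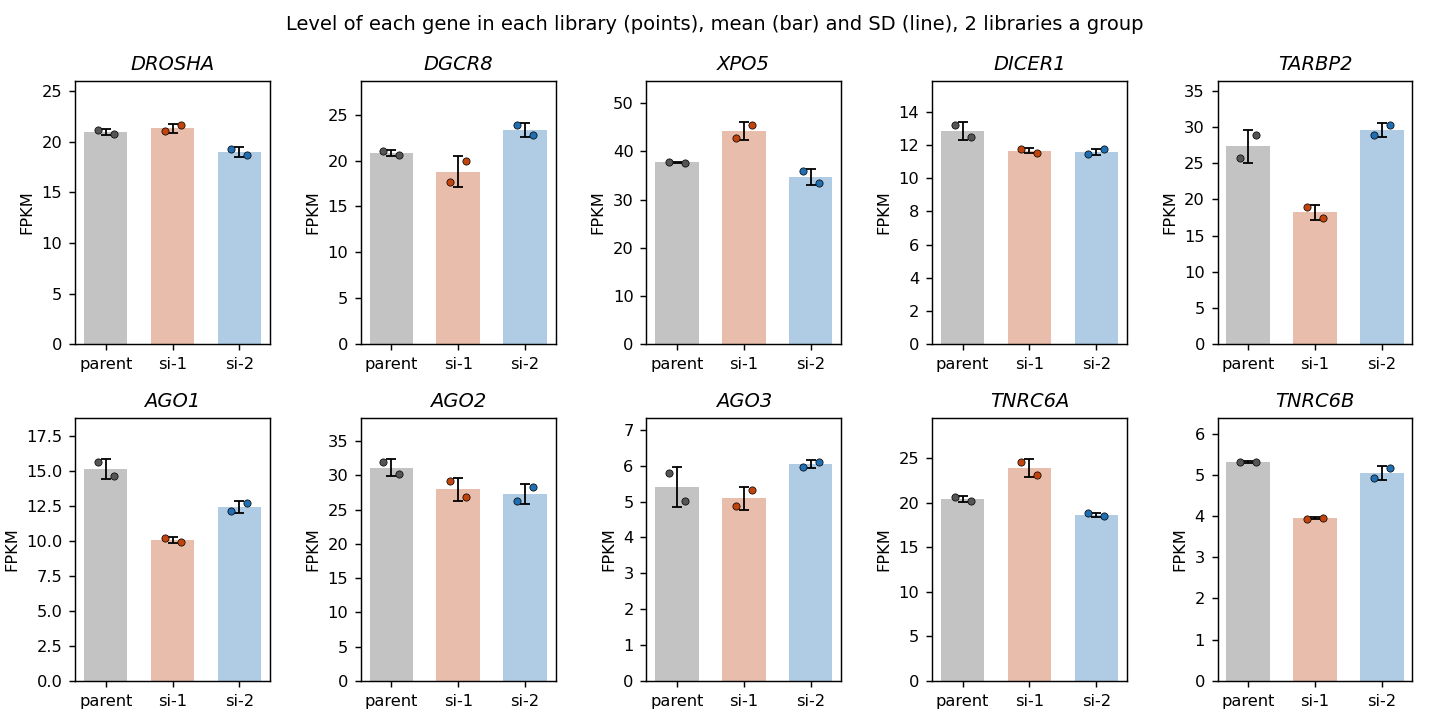
FPKM (y axis, from 0) of the 10 genes in each library (points), with the group mean (bar) and SD (line), for parent, siLINC01534-1 (si-1) and siLINC01534-2 (si-2). AGO1 was highest in the parent libraries (15.7 and 14.7 FPKM) and lowest with siLINC01534-1 (10.3 and 9.92 FPKM), while TARBP2 was low with siLINC01534-1 alone.

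The siRNA strands share their letters with other transcripts at the seed, and the matches of the antisense seeds in this set are shown here because several results below differ between the siRNAs. The DNA letters GAATAAA are complementary to positions 2 to 8 of the siLINC01534-1 antisense strand, and TTCGAGT to those of siLINC01534-2, by the strands listed in the study's methods. Both were sought on the transcript strand in 1 3′ UTR per gene, that of its longest coding model in GENCODE, on GRCh37 (hg19), the build to which the reads were mapped and on which all positions here are given. GAATAAA occurred in 26.8% of the 10548 3′ UTRs of tested genes and overlaps the poly(A) signal AATAAA, and TTCGAGT occurred in 1.92%. GAATAAA was found in 6 of the 10 genes, AGO1, AGO2, AGO3, DICER1, TARBP2 and TNRC6B, and TTCGAGT in 0 of them. DROSHA, DGCR8, XPO5 and TNRC6A did not hold GAATAAA in these 3′ UTRs. The matches in the 3 genes called lower and in DICER1, which was not called, are printed 5′ to 3′ with the 7-mer in capitals.
TARBP2, chr12:53900175-53900203, plus strand: actagagcctgGAATAAAtatgctgcttt
AGO1, chr1:36388622-36388650, plus strand: ggagagaatttGAATAAAaggtgggaaag
AGO1, chr1:36390972-36391000, plus strand: taattgtaaaaGAATAAAcaaaacctaat
AGO1, chr1:36395662-36395690, plus strand: ttcctcagcctGAATAAAatagtatgttt
TNRC6B, chr22:40726044-40726072, plus strand: ttttaaataaaGAATAAAtagtgtccgtt
TNRC6B, chr22:40726632-40726660, plus strand: gggataagttgGAATAAAtgtgtttaaaa
DICER1, chr14:95556668-95556696, minus strand: gatagataacaGAATAAAacatttaacat
The match of TARBP2 ends 23 bases before the end of a 3′ UTR of 283 bases, the place where a poly(A) signal usually lies. Those of AGO1 lie 3323, 5673 and 10363 bases into an annotated 3′ UTR of 10823 bases, and those of TNRC6B 6810 and 7398 bases into one of 12567 bases, so that a shorter 3′ UTR used by the cells may not hold them. The same holds for the matches of AGO3, which lie 7953 and 15155 bases into one of 16755 bases. A 3′ UTR with at least 1 of the sites was annotated for 2 of 3 coding transcripts of AGO1, 1 of 4 of AGO3, 4 of 8 of TARBP2, 3 of 6 of TNRC6B and 7 of 12 of DICER1.

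DROSHA and DGCR8 form the Microprocessor, and with all 6 libraries in the fit neither was called different from parent with either siRNA. DROSHA (minus strand of chromosome 5, 31400601 to 31532303) measured 21.1 and 20.8 FPKM in the parent libraries, against 21.0 and 21.7 FPKM under siLINC01534-1 and 19.3 and 18.7 FPKM under siLINC01534-2. The siLINC01534-1 libraries overlapped parent, and both siLINC01534-2 libraries lay below it. The log2 change was 0.02 with siLINC01534-1 (standard error 0.043, adjusted p = 0.67, limma) and -0.14 with siLINC01534-2 (standard error 0.043, adjusted p = 0.077, limma). DGCR8 (plus strand of chromosome 22, 20067744 to 20099400) measured 21.0 and 20.6 FPKM in the parent libraries, against 17.6 and 20.0 FPKM under siLINC01534-1 and 23.9 and 22.8 FPKM under siLINC01534-2. Its groups did not overlap, with siLINC01534-1 lowest and siLINC01534-2 highest, although neither change against parent was called (log2 changes of -0.14, adjusted p = 0.14, and 0.16, adjusted p = 0.15, limma). The change of DGCR8 with siLINC01534-1 depended on the setting, and ran from -0.23 to -0.057 when fits with a library left out were included. The siRNAs did differ from each other in both genes. DROSHA was higher by 0.16 on the log2 scale with siLINC01534-1 than with siLINC01534-2 (adjusted p = 0.032, limma), and DGCR8 was lower by a difference of -0.30 (adjusted p = 0.018, limma).

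The ratio of DROSHA to DGCR8 FPKM followed from these opposite differences. It was 1.00 and 1.01 in the parent libraries, against 1.19 and 1.08 under siLINC01534-1 and 0.809 and 0.817 under siLINC01534-2, so that the 3 groups did not overlap. DGCR8 shares annotated exon sequence with TRMT2A on the opposite strand and with the microRNA genes MIR1306 and MIR3618 on its own strand, and the DGCR8 message itself contains hairpins that the Microprocessor can cut. TRMT2A was lower with siLINC01534-1 (log2 change -0.36, adjusted p = 0.011, limma), and whether the counting used strand is not given in the sources used here, so that reads of the pair cannot be told apart. MIR3618 was listed at 0 in all libraries and MIR1306 in all but the second parent library, where it was listed at 2352 FPKM. As FPKM divides by transcript length, few reads can give a large value in so short a gene. The value rests on that library alone, and MIR1306 was not called for both siRNAs against parent (log2 change -5.60, standard error 2.9, adjusted p = 0.19, limma). The call for DGCR8 between the siRNAs was lost without the first siLINC01534-1 library (difference -0.21, adjusted p = 0.057), the first siLINC01534-2 library (-0.27, adjusted p = 0.089) or the second siLINC01534-2 library (-0.33, adjusted p = 0.053), and the call for DROSHA was lost with any 1 of the 6 libraries left out, with limma adjusted p-values of 0.056 to 0.13.

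XPO5, the exporter of microRNA precursors, was higher with siLINC01534-1. XPO5 (minus strand of chromosome 6, 43490072 to 43543775) had the highest level of the set, with an FPKM of 37.8 and 37.7 in the parent libraries, against 42.9 and 45.5 under siLINC01534-1 and 35.9 and 33.5 under siLINC01534-2. Both siLINC01534-1 libraries lay above the parent libraries and both siLINC01534-2 libraries below them. Against parent the ratio of means was 1.17 with siLINC01534-1 (log2 change 0.22, standard error 0.051, adjusted p = 0.017, limma) and 0.919 with siLINC01534-2 (log2 change -0.12, adjusted p = 0.15, limma). The siRNAs differed by 0.34 on the log2 scale (95% interval 0.21 to 0.47, adjusted p = 0.0047, limma). Without the first parent library, the second parent library or the second siLINC01534-1 library the change with siLINC01534-1 was no longer called (log2 changes of 0.22, 0.22 and 0.18, adjusted p = 0.072, 0.074 and 0.084, limma), whereas the difference between the siRNAs was still called with any 1 library left out. XPO5 shares exon sequence with POLR1C on the opposite strand, which was lower with siLINC01534-1 (log2 change -0.26, adjusted p = 0.040, limma).

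DICER1 and TARBP2 act together in the cytoplasmic cut, and TARBP2 was called with siLINC01534-1 while DICER1 was not called in any comparison. DICER1 (minus strand of chromosome 14, 95552565 to 95624347) measured 13.2 and 12.5 FPKM in the parent libraries, against 11.8 and 11.6 FPKM under siLINC01534-1 and 11.5 and 11.7 FPKM under siLINC01534-2. All 4 siLINC01534 libraries lay below both parent libraries, by a small margin. The log2 change for the mean of both siRNAs was -0.13 (95% interval -0.24 to -0.02) and did not pass the threshold (adjusted p = 0.067, limma). The difference between the siRNAs was 0.01 on the log2 scale, with a 95% interval of -0.12 to 0.13. DICER1 shares exon sequence with DICER1-AS1 on the opposite strand, which did not exceed 1.49 FPKM in any library and did not pass the filter.

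TARBP2, which steadies DICER1 and helps to load Argonaute, fell with siLINC01534-1. TARBP2 (plus strand of chromosome 12, 53894705 to 53900215) measured 25.7 and 28.96 FPKM in the parent libraries, against 18.95 and 17.4 FPKM under siLINC01534-1 and 28.9 and 30.3 FPKM under siLINC01534-2. The siLINC01534-1 libraries lay below all others, and the siLINC01534-2 libraries overlapped parent. The ratio to parent was 0.665 with siLINC01534-1 (log2 change -0.56, standard error 0.073, adjusted p = 0.0024, limma) and 1.08 with siLINC01534-2 (log2 change 0.11, adjusted p = 0.31, limma). Between the siRNAs the log2 difference was -0.67 (95% interval -0.86 to -0.49, adjusted p = 0.0016, limma), the largest in size among the 10 genes, and 92.2% of all tested genes differed by less. Both calls held with any 1 library left out. The call for the mean of both siRNAs (log2 change -0.22, adjusted p = 0.040, limma) thus averages a fall with 1 siRNA and a value that was not lower with the other, and it was lost on leaving out any 1 library other than the first parent library, with adjusted p-values of 0.057 to 0.20. The ratio of DICER1 to TARBP2 FPKM was 0.513 and 0.430 in the parent libraries, against 0.621 and 0.662 under siLINC01534-1 and 0.396 and 0.387 under siLINC01534-2.

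**Figure D2:**
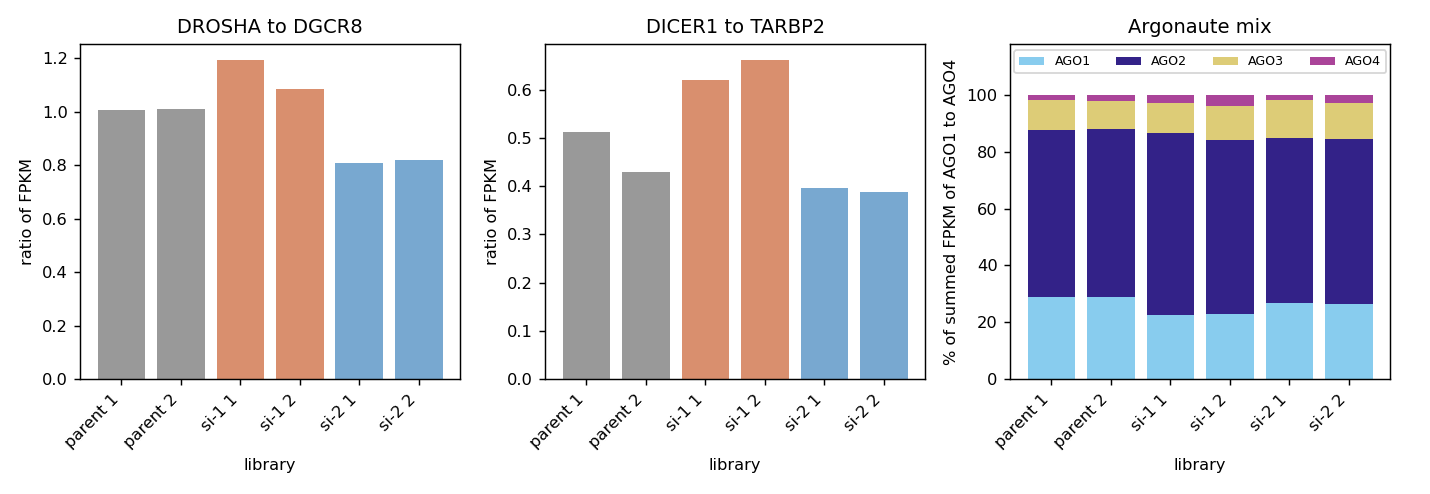
Ratio of DROSHA to DGCR8 FPKM (left), ratio of DICER1 to TARBP2 FPKM (middle) and percent of the summed FPKM of AGO1 to AGO4 held by each (right), 1 bar per library, with parent, siLINC01534-1 (si-1) and siLINC01534-2 (si-2) side by side. Both ratios were highest with siLINC01534-1 (1.14 and 0.642 on average) and lowest with siLINC01534-2 (0.813 and 0.392), and AGO2 held more than any other Argonaute in every library.

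AGO1 was the gene of the set that limma called lower with each siRNA, although the call with siLINC01534-2 did not hold with a library left out. AGO1 (plus strand of chromosome 1, 36335409 to 36396133), an Argonaute that binds microRNAs but cuts targets poorly, measured 15.7 and 14.7 FPKM in the parent libraries, against 10.3 and 9.92 FPKM under siLINC01534-1 and 12.1 and 12.7 FPKM under siLINC01534-2. The 3 groups did not overlap, and all 4 siLINC01534 libraries were below parent. The ratio to parent was 0.665 with siLINC01534-1 (log2 change -0.54, standard error 0.057, adjusted p = 0.0012, limma) and 0.820 with siLINC01534-2 (log2 change -0.27, standard error 0.057, adjusted p = 0.027, limma). The log2 difference between the siRNAs was -0.28 (adjusted p = 0.013, limma). The fall with siLINC01534-1 was still called with any 1 library left out, and so was the mean of both siRNAs (log2 change -0.41, adjusted p = 0.0028, limma). The call with siLINC01534-2 was lost with any 1 of the 6 libraries left out (log2 changes of -0.31 to -0.22, adjusted p-values of 0.053 to 0.12). The difference between the siRNAs was lost without the second siLINC01534-1 library (difference -0.25, adjusted p = 0.069) or the second siLINC01534-2 library (-0.25, adjusted p = 0.065).

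AGO2, the Argonaute that can cut its target, and AGO3 were not called in any comparison. AGO2 measured 32.0 and 30.3 FPKM in the parent libraries, against 29.1 and 26.8 FPKM under siLINC01534-1 and 26.2 and 28.3 FPKM under siLINC01534-2. All 4 siLINC01534 libraries lay below both parent libraries, and the siRNA groups overlapped each other. The log2 change for the mean of both siRNAs was -0.17 (95% interval -0.31 to -0.03, adjusted p = 0.061, limma), and the difference between the siRNAs was 0.04 with a 95% interval of -0.12 to 0.19. With only genes of a mean FPKM of at least 5 in the fit, the adjusted p was 0.049. AGO3 (plus strand of chromosome 1, 36396319 to 36538101), which lies beside AGO1, measured 5.80 and 5.01 FPKM in the parent libraries, against 4.87 and 5.32 FPKM under siLINC01534-1 and 5.96 and 6.12 FPKM under siLINC01534-2. Its log2 change for the mean of both siRNAs was 0.03 (95% interval -0.15 to 0.22, adjusted p = 0.75, limma), and it turned negative without the second parent library (-0.06). AGO4, the remaining paralog, was at most 1.62 FPKM in any library and was not called (log2 change 0.16, 95% interval -0.20 to 0.52, adjusted p = 0.43, limma).

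Set side by side, the Argonaute genes kept their order of level in all 6 libraries, with AGO2 first, then AGO1, AGO3 and AGO4. AGO2 held 58.8% and 59.4% of the summed Argonaute FPKM in the parent libraries, against 64.0% and 61.4% under siLINC01534-1 and 58.1% and 58.4% under siLINC01534-2. The share of AGO1 averaged 28.8% (SD 0.048, n = 2) in parent, 22.6% (SD 0.13, n = 2) under siLINC01534-1 and 26.6% (SD 0.43, n = 2) under siLINC01534-2. The sum itself was 54.5 and 51.0 FPKM in the parent libraries, against 45.5 and 43.6 FPKM under siLINC01534-1 and 45.1 and 48.4 FPKM under siLINC01534-2, so that all siLINC01534 libraries lay below parent.

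Of the GW182 proteins, TNRC6A rose and TNRC6B fell with siLINC01534-1. TNRC6A (plus strand of chromosome 16, 24621530 to 24838953) measured 20.6 and 20.2 FPKM in the parent libraries, against 24.6 and 23.1 FPKM under siLINC01534-1 and 18.8 and 18.4 FPKM under siLINC01534-2. As for XPO5, both siLINC01534-1 libraries lay above parent and both siLINC01534-2 libraries below it. The log2 change was 0.22 with siLINC01534-1 (standard error 0.047, adjusted p = 0.014, limma) and -0.12 with siLINC01534-2 (adjusted p = 0.11, limma), and the siRNAs differed by 0.34 (95% interval 0.22 to 0.46, adjusted p = 0.0036, limma). The call with siLINC01534-1 was lost without either parent library (log2 changes of 0.23 and 0.20, adjusted p = 0.052 and 0.071, limma) or without the first siLINC01534-1 library (0.17, adjusted p = 0.066).

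TNRC6B (plus strand of chromosome 22, 40440821 to 40731812) measured 5.30 and 5.32 FPKM in the parent libraries, against 3.93 and 3.96 FPKM under siLINC01534-1 and 4.93 and 5.17 FPKM under siLINC01534-2. The siLINC01534-1 libraries were the lowest and the siLINC01534-2 libraries lay just below parent. The log2 change was -0.35 with siLINC01534-1 (standard error 0.064, adjusted p = 0.0076, limma), which was still called with any 1 library left out, and -0.06 with siLINC01534-2 (95% interval -0.22 to 0.10, adjusted p = 0.53, limma). The siRNAs differed by -0.29 (adjusted p = 0.016, limma), a call lost without either siLINC01534-1 library or without the second siLINC01534-2 library (differences of -0.30 to -0.26, adjusted p-values of 0.061 to 0.071). The call for the mean of both siRNAs (log2 change -0.21, adjusted p = 0.034, limma) was lost with any 1 of the 6 libraries left out, with adjusted p-values of 0.057 to 0.14. TNRC6C, the third GW182 gene, was at 4.51 and 4.71 FPKM in the parent libraries, against 5.62 and 5.76 under siLINC01534-1 and 4.26 and 4.32 under siLINC01534-2. It was higher with siLINC01534-1 (log2 change 0.25, adjusted p = 0.023, limma) and was not called with siLINC01534-2 (-0.08, adjusted p = 0.38, limma). TNRC6B thus held 17.4% and 17.6% of the summed FPKM of the 3 GW182 genes in the parent libraries, against 11.5% and 12.1% under siLINC01534-1 and 17.6% and 18.5% under siLINC01534-2.

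**Figure D3:**
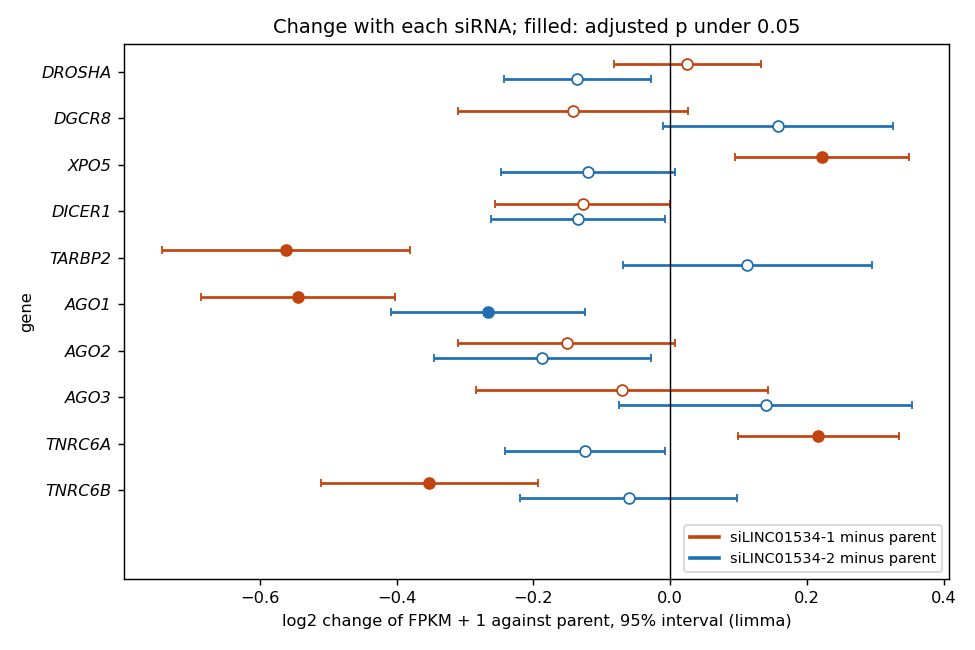
Log2 change of FPKM + 1 against parent (x axis) for each of the 10 genes with siLINC01534-1 (upper point of each pair) and siLINC01534-2 (lower point), with 95% intervals from limma and filled points at an adjusted p under 0.05. Filled points are 5 for siLINC01534-1 (TARBP2, AGO1 and TNRC6B lower, XPO5 and TNRC6A higher) and 1 for siLINC01534-2 (AGO1 lower).

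The direct comparison of the siRNAs called more genes of the set than any comparison with parent. Between siLINC01534-1 and siLINC01534-2, both of them transfected groups, 7 of the 10 genes differed, 4 lower (AGO1, TARBP2, DGCR8 and TNRC6B) and 3 higher (DROSHA, XPO5 and TNRC6A) with siLINC01534-1. Over all genes tested, 41.8% differed, 22.3% lower and 19.5% higher. The median size of the log2 difference was 0.28 in the set and 0.20 over all genes tested. Leaving out 1 library at a time left 3 to 6 of the 7 calls, with 3 left without the second siLINC01534-2 library and 4 without either siLINC01534-1 library, and the calls for TARBP2, XPO5 and TNRC6A held each time. With all 4 siLINC01534 libraries in a single group against parent, so that the difference between siRNAs counted as error, limma called 0 of the 10 genes, against 2.96% of all genes tested. At an unadjusted p under 0.05 that fit gave 1 of the 10, lower, and 21.8% of all genes.

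**Figure D4:**
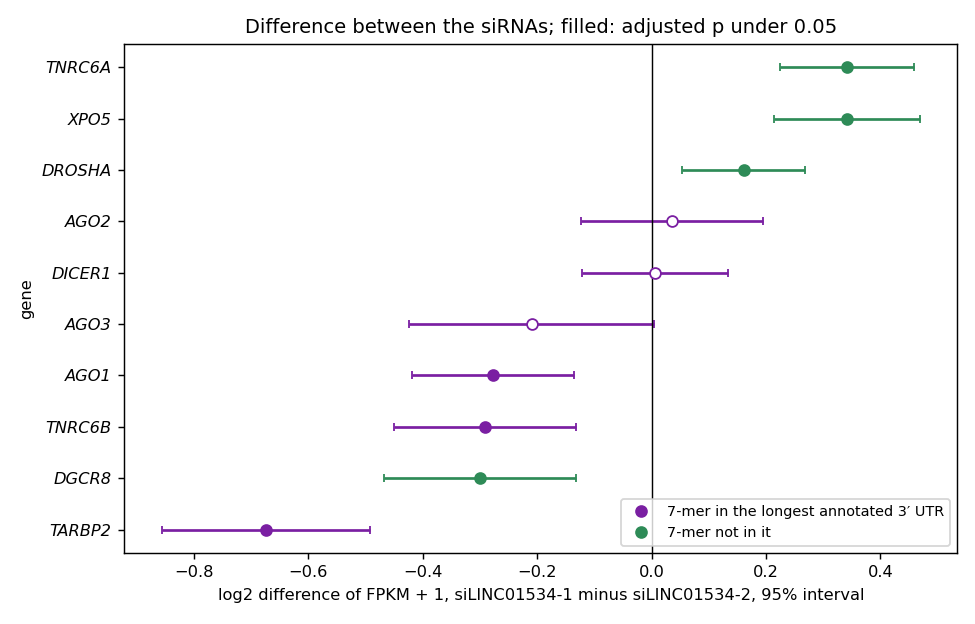
Log2 difference of FPKM + 1 between siLINC01534-1 and siLINC01534-2 (x axis) for the 10 genes, ordered by size, with 95% intervals from limma and filled points at an adjusted p under 0.05. Purple marks the 6 genes whose longest annotated 3′ UTR holds GAATAAA and green the 4 without it. TNRC6A and XPO5 (0.34 each) stand at one end and TARBP2 (-0.67) at the other.

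The genes with the 7-mer GAATAAA shown above can be set beside those without it. With siLINC01534-1, the 6 genes that hold it had log2 changes of -0.56 to -0.07, a median of -0.25, and 3 of them were called lower and 0 higher. The 4 genes without it had changes of -0.14 to 0.22, a median of 0.12, and 2 were called higher and 0 lower. Among all tested genes with a 3′ UTR, the median change with siLINC01534-1 was -0.14 for the 2830 with the 7-mer, of which 41.3% were called lower, and 0.03 for the 7718 without it, of which 20.5% were called lower. Called higher were 413 of the 2830 and 1972 of the 7718. The 3′ UTRs with the 7-mer were longer (median of 2654 bases, against 1443 over all), and those of AGO1, AGO2, AGO3 and TNRC6B were each longer than over 99.0% of the others. AGO3 held 2 matches, AGO2 1 and DICER1 1, and none of these 3 genes was called with siLINC01534-1. AGO1 also fell with siLINC01534-2, whose own 7-mer its 3′ UTR did not hold. The part of these matches in the changes was not tested.

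Of 47 genes that work beside the set, all 47 were found in the tables and 44 passed the filter. LIN28A, LIN28B and TRIM71, regulators of the let-7 microRNA, did not exceed 0.103 FPKM. For the mean of both siRNAs 17 were lower and 4 higher (limma, with 20.1% and 17.1% of all genes as background), and the median log2 change was -0.10. With siLINC01534-1 19 were lower and 9 higher, against 24.5% and 21.8% of all genes. With siLINC01534-2 11 were lower and 2 higher, against 11.8% and 11.1%. Between the siRNAs 29 of the 44 differed, against 41.8% of all genes. Of the 41 with an annotated 3′ UTR, the 16 that hold GAATAAA had 9 lower and 0 higher with siLINC01534-1, and the 25 without it had 10 lower and 8 higher. Over all tested genes with a 3′ UTR, 1169 of the 2830 that hold it were lower and 413 higher. Of the 7718 without it, 1583 were lower and 1972 higher.

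By role, both nuclear export genes of the list were lower with the siRNAs averaged, against 20.1% of all genes tested. Other roles were mixed. Of 4 Microprocessor cofactors 1 was lower and 0 higher, and of 4 terminal uridylation and decay genes 1 was lower and 2 higher. PAN2, PAN3, MOV10 and FMR1 were not called. RAN, the small GTPase that exportins need to bind their cargo, measured 397 and 409 FPKM in the parent libraries, against 209 and 222 FPKM under siLINC01534-1 and 376 and 367 FPKM under siLINC01534-2 (log2 change -0.51, adjusted p = 6.3e-04, limma). XPO1, the general exportin, was at 116 and 107 in the parent libraries, against 65.0 and 63.8 under siLINC01534-1 and 97.5 and 97.7 under siLINC01534-2 (-0.49, adjusted p = 9.3e-04, limma). The averages join unequal values. RAN was called lower with siLINC01534-1 (-0.90, adjusted p = 1.1e-04, limma) but not with siLINC01534-2 (-0.12, adjusted p = 0.10, limma), and the siRNAs differed by -0.78 (adjusted p = 2.5e-04, limma). XPO1 was called with each (-0.78, adjusted p = 2.1e-04, and -0.19, adjusted p = 0.040, limma), and the siRNAs differed by -0.59 (adjusted p = 6.6e-04, limma). XPO5 itself was higher with siLINC01534-1, unlike these 2 genes.

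Both listed cochaperones of HSP90, which help to load Argonaute, were lower with the siRNAs averaged, against 20.1% of all genes tested. FKBP4 was at 159 and 163 FPKM in the parent libraries, against 104 and 106 under siLINC01534-1 and 120 and 117 under siLINC01534-2 (log2 change -0.53, adjusted p = 3.3e-04, limma), and PTGES3 was lower by a smaller amount (-0.22, adjusted p = 0.0062, limma). TSN, a subunit of the nuclease that removes the passenger strand of an siRNA, was at 45.2 and 44.9 FPKM in the parent libraries, against 32.5 and 33.1 under siLINC01534-1 and 37.9 and 41.5 under siLINC01534-2 (-0.31, adjusted p = 0.0048, limma). TSN was called with siLINC01534-1 (-0.45, adjusted p = 0.0016, limma) but not with siLINC01534-2 (-0.18, adjusted p = 0.059, limma). TSNAX, the other gene listed for this step, was also lower with the siRNAs averaged (-0.30, adjusted p = 0.019, limma). Its pattern was the reverse of TSN. TSNAX was called with siLINC01534-2 (-0.54, adjusted p = 0.0089, limma) but not with siLINC01534-1 (-0.06, adjusted p = 0.55, limma).

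Among the effectors downstream of GW182, 4 of 10 CCR4-NOT genes were lower and 1 was higher, and 3 of 10 decapping and decay genes were lower and 1 higher, against 20.1% lower and 17.1% higher over all genes. CNOT2, a scaffold subunit of the CCR4-NOT deadenylase, measured 22.3 and 21.7 FPKM in the parent libraries, against 15.3 and 14.7 FPKM under siLINC01534-1 and 21.1 and 20.3 FPKM under siLINC01534-2. Its averaged log2 change of -0.30 (adjusted p = 0.0040, limma) joined -0.52 with siLINC01534-1 (adjusted p = 7.2e-04) and -0.08 with siLINC01534-2, which was not called (adjusted p = 0.26), and the siRNAs differed by -0.44 (adjusted p = 0.0016, limma). PATL1, which links deadenylation to decapping, was lower with each siRNA, with log2 changes of -0.52 (adjusted p = 5.4e-04, limma) and -0.36 (adjusted p = 0.0057, limma). XRN1, the exonuclease that degrades decapped messages, was higher by 0.35 (adjusted p = 0.022, limma), and it was called with siLINC01534-1 (0.41, adjusted p = 0.015) but not with siLINC01534-2 (0.28, adjusted p = 0.082). ZSWIM8, part of a ubiquitin ligase that removes Argonaute bound to certain targets, rose by 0.47 (adjusted p = 0.015, limma), from 8.18 and 8.72 FPKM in the parent libraries to 13.3 and 12.5 FPKM under siLINC01534-1 and 10.1 and 12.8 FPKM under siLINC01534-2. With siLINC01534-2 alone ZSWIM8 was not called (0.39, adjusted p = 0.060, limma), and neither its difference between the siRNAs nor that of XRN1 was called (0.17, adjusted p = 0.27, and 0.13, adjusted p = 0.29, limma).

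Of 11 host transcripts from which microRNAs are cut, 6 passed the filter, with mean levels of 1.26 FPKM (MIR31HG) to 27.1 FPKM (MIR4435-2HG). With the siRNAs averaged 1 was called higher and 2 lower (limma, with 17.1% and 20.1% of all genes as background). With siLINC01534-1 3 were higher and 2 lower, against 21.8% and 24.5% of all genes. With siLINC01534-2 1 was higher and 0 lower, against 11.1% and 11.8%. MIR22HG, the host of miR-22, was at 3.84 and 3.57 FPKM in the parent libraries, against 10.2 and 11.1 under siLINC01534-1 and 9.17 and 11.5 under siLINC01534-2, so that all 4 siLINC01534 libraries lay above parent (log2 change 1.28, adjusted p = 7.0e-04, limma). MIR100HG was lower (-0.29, adjusted p = 0.020, limma), at 19.2 and 19.1 FPKM in the parent libraries, against 13.1 and 14.6 under siLINC01534-1 and 18.3 and 16.4 under siLINC01534-2. MIR100HG was called with siLINC01534-1 (-0.44, adjusted p = 0.0059, limma) and not with siLINC01534-2 (-0.14, adjusted p = 0.24, limma), while MIR22HG was called with each (1.30 and 1.26, adjusted p = 5.9e-04 and 0.0025, limma). MIR17HG was lower with the siRNAs averaged (-0.57, adjusted p = 0.032, limma). It was called with siLINC01534-1 (-0.92, adjusted p = 0.0088, limma) and not with siLINC01534-2 (-0.23, adjusted p = 0.38, limma). MIR4435-2HG and MIR31HG were called higher with siLINC01534-1 (0.92 and 0.61, adjusted p = 0.0054 and 0.029, limma), but not with siLINC01534-2 or on average. MIR31HG averaged 0.943 FPKM in parent and 0.866 FPKM under siLINC01534-2, both under the filter. It passed only through its siLINC01534-1 libraries (1.68 and 2.28 FPKM), the group in which it was then called, so that this call carries little weight. DLEU2 was not called in any comparison with parent. These values are those of the host transcripts and not of mature microRNAs, which poly(A) libraries do not capture.

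The genes most like DICER1 over the 6 libraries, by the root mean square difference of centred log2 values, were CHMP2B, EML4 and RRN3, at 0.010, 0.012 and 0.013. Those most like AGO2 were PTDSS1, TRRAP and PIH1D1, at 0.021, 0.022 and 0.025. With 12203 genes and 6 libraries such closeness is a description of these values.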

How the data were processed

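The authors sequenced 75-base single-end reads of stranded poly(A) libraries, mapped them to hg19 with TopHat 2.0.13, Bowtie2 2.2.3 and SAMtools 0.1.19, and deposited FPKM from Cuffnorm 2.2.1 (Cufflinks in the labels), 1 table per library. The annotation is not given in the sources used here. The methods give cultures in triplicate and the labels 2 libraries per group. No read numbers were used; depth was estimated from values worth 1 read in genes with 1 transcript, with 200 bases taken off the length.

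log2(FPKM + 1) was fitted with limma 3.58.1 in R 4.3.3 (eBayes with trend, 1 mean per group, 2-sided, Benjamini-Hochberg adjustment over the 12203 genes whose mean FPKM reached 1). The pseudocount understates changes of low genes. In simulated data for both siRNAs against parent over 12203 genes, 181 of 200 genes changed by 1 on the log2 scale were recovered with 5 false calls, and 35 of 200 changed by 0.3 with 2. Only these 200 genes were changed, alike with both siRNAs, whereas 37.2% of all genes tested were called in the data. The recovery therefore does not give the power of the fit to these data.

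Named beside the 10 genes are AGO4, TNRC6C and, of the pathway and host lists, the 10 largest changes past the threshold for both siRNAs whose 4 siLINC01534 libraries lie on one side of parent. PTGES3, TSNAX, MIR17HG, MIR31HG, MIR4435-2HG, DLEU2, TRMT2A, POLR1C, DICER1-AS1 and the microRNA genes in DGCR8 were added after their values were seen. Genes and lists were chosen with earlier results of these data known. Alternatives were other pseudocounts, filters, scalings, a replicate block, no trend, other groupings, a 2-fold rule and each library left out. Python 3.11.15, pandas 2.3.3 and numpy 2.4.6 were used.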

Additional observations from a re-analysis of the deposited data

Results flagged for a closer look

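For 7 genes the effect of one siRNA differed from that of the other by the limma test of the difference, siLINC01534-1 minus siLINC01534-2 on the log2 scale. The difference was -0.67 for TARBP2 (adjusted p = 0.0016), 0.34 for TNRC6A (adjusted p = 0.0036), 0.34 for XPO5 (adjusted p = 0.0047), -0.28 for AGO1 (adjusted p = 0.013), -0.29 for TNRC6B (adjusted p = 0.016), -0.30 for DGCR8 (adjusted p = 0.018) and 0.16 for DROSHA (adjusted p = 0.032). Over all genes tested, 41.8% differed between the siRNAs.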

How the results depend on the processing

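The 3 genes of the set called for both siRNAs against parent came to 1 with no filter on low values, with upper-quartile scaling and with the replicate number as a block, to 0 with the 4 siLINC01534 libraries as 1 group, and to 1 to 2 with a library left out. The 5 called with siLINC01534-1 came to 3 to 5 with a library left out. The 1 called with siLINC01534-2 came to 0 under the replicate block, with only parent and siLINC01534-2 in the fit, and with any library left out. The 7 called between the siRNAs came to 3 to 6 with a library left out. By the 2-fold rule each of these counts was 0. Of the other pathway genes, 21 were called for both siRNAs, 1 with the siLINC01534 libraries as 1 group and 9 to 18 with a library left out. The 28 with siLINC01534-1 came to 18 to 26, and the 29 between the siRNAs to 21 to 25. The 13 with siLINC01534-2 came to 8 with no filter, 7 under the block, 7 without the trend, 8 with only its own libraries and parent, and 2 to 9 with a library left out. The 2-fold rule gave 0 of them against parent and 1 between the siRNAs.

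The median log2 change of the 10 genes for both siRNAs was -0.056 with a filter at 5 FPKM and -0.064 with upper-quartile scaling, and -0.11 to -0.067 with a library left out. With siLINC01534-1 it was -0.085 under upper-quartile scaling and -0.16 to -0.099 with a library left out. Between the siRNAs it was 0.0064 with the filter at 5, which drops TNRC6B, -0.063 with upper-quartile scaling and -0.12 to -0.086 with a library left out. Signs that turned with a library left out were those of changes not called. These were AGO3 with siLINC01534-1 (-0.16 to 0.019) and with both siRNAs (-0.056 to 0.12), DGCR8 with both (-0.035 to 0.051), and AGO2 (-0.023 to 0.094) and DICER1 (-0.0090 to 0.022) between the siRNAs.

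Deviations of same-numbered libraries from their group means correlated at 0.11, 0.03 and -0.05 across genes, so that no large shift shared by replicate number was seen. Such values cannot settle whether same-numbered libraries were prepared together, which the labels do not say. Where 1 library was left out, the lone library of its group was taken to vary like the others. The lowest TARBP2 library rests on an estimated 220 reads, and with 2 libraries per group small changes may not be detected.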
